A study of Sus scrofa with 8 samples.

Results

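The probes for 2 peptide hormones of the testis, relaxin and insulin-like peptide 3 (INSL3), were examined in boars on a methyl-enriched or a control diet. A probe was taken if its accession belonged to RLN1, RLN2 or INSL3 in the RefSeq gene table, or if the gene list of the study gave it one of these names. Of 43603 probes on the array 2 met this rule, 1 for relaxin and 1 for INSL3, out of 2228 genes that had a named probe. The relaxin probe (A_72_P146831, accession NM_213872, called RLN1 in the study's list and RLN2 in RefSeq) was chosen by its signal difference between the diets in these same boars, so this difference is described here and not tested. The INSL3 probe (A_72_P232832, NM_213970) was taken by its accession. Both probes passed the filter on dim signals.

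Relaxin and INSL3 belong to the insulin superfamily. Each is made as a prohormone, from which a connecting peptide is cut out to leave an A and a B chain held by disulfide bonds. In the boar the Leydig cells, the steroid-producing cells between the seminiferous tubules, are the main testicular source of both. Relaxin acts through the receptor RXFP1 and is best known for loosening connective tissue around birth, whereas INSL3 acts through RXFP2, guides the descent of the testis in the fetus and serves as a marker of mature Leydig cells in the adult.

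Testis RNA of 8 Large White boars, the F0 generation of a feeding experiment, was hybridized to 1 one-colour porcine Agilent array per boar. From month 1 to month 10 of age, 4 boars (m_9597, m_9599, m_9499 and m_9527, named by the number that closes their sample title) were fed a diet enriched in folate, vitamins B12 and B6, betaine, choline and methionine, and the control diet was fed to 4 boars (m_9528, m_9502, m_9598 and m_9600). Boars m_9597 to m_9600 were brothers of 1 litter, 2 on each diet, and were hybridized together on 1 slide, so that litter and slide cannot be told apart. The other 4 boars came from the remaining litters of the study, their division among these is not given in the sources used here, and they are treated as 1 set in every contrast of litter. On both slides the supplemented boars took places 1 and 3 and the control boars places 2 and 4, so that diet and place cannot be told apart either.

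The share of spots well above background was 76.3%, 79.6%, 76.5% and 77.1% in supplemented boars m_9597, m_9599, m_9499 and m_9527. It was 77.3%, 82.6%, 82.7% and 86.5% in control boars m_9502, m_9600, m_9528 and m_9598. Control arrays thus detected more spots, except that of boar m_9502, which lay within the supplemented range. No spot was saturated, and all arrays were scanned on 1 date. The number of boars limits the precision of every value given here.

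The relaxin probe is shown because the diet difference of the hormone rests on it alone. It is 60 bases long with a GC content of 36.7%, and all 3 of its forward reading frames hold a stop codon. Its first 30 bases, in lower case since no part of them was searched for a motif, are as follows.
relaxin probe A_72_P146831, bases 1 to 30: tcacttatgcctctgtcacccactgattat

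Relaxin signal was lower in every supplemented boar than in every control boar. The median intensity of the relaxin spot, before any normalization, was 205.5 in boar m_9597, 374 in boar m_9599, 335 in boar m_9499 and 112 in boar m_9527 on the supplemented diet. On the control diet it was 1415 in boar m_9598, 1358 in boar m_9600, 1366.5 in boar m_9502 and 5023 in boar m_9528. The first 3 of these control boars lay close together and boar m_9528 stood far above them, while the supplemented boars were spread more evenly. The local background of the spot was 20 to 27.5 over the 8 arrays. The spot was well above background on all 8 arrays, at 5.33 to 16.8 times the local background in supplemented boars and 52.4 to 209 times in control boars. The lowest control intensity was 3.63 times the highest supplemented intensity, so that the groups were apart in the unnormalized data too.

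After quantile normalization of the log2 signals, relaxin was 7.87 in boar m_9597, 8.29 in boar m_9599, 8.23 in boar m_9499 and 7.23 in boar m_9527. In the control boars it was 9.98 in boar m_9598, 10.45 in boar m_9600, 10.77 in boar m_9502 and 12.05 in boar m_9528. The means were 7.91 ± 0.49 (SD, n = 4) in supplemented boars and 10.81 ± 0.89 (SD, n = 4) in control boars. The difference, supplemented minus control, was -2.90 on the log2 scale (SE 0.42), which is 7.49-fold lower on the supplemented diet. Without subtraction of background a fold of this kind understates the change of a dim probe. Calculated from the background-subtracted processed signal, with each array divided by its own 75th percentile, the difference was -3.09.

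**Figure D1:**
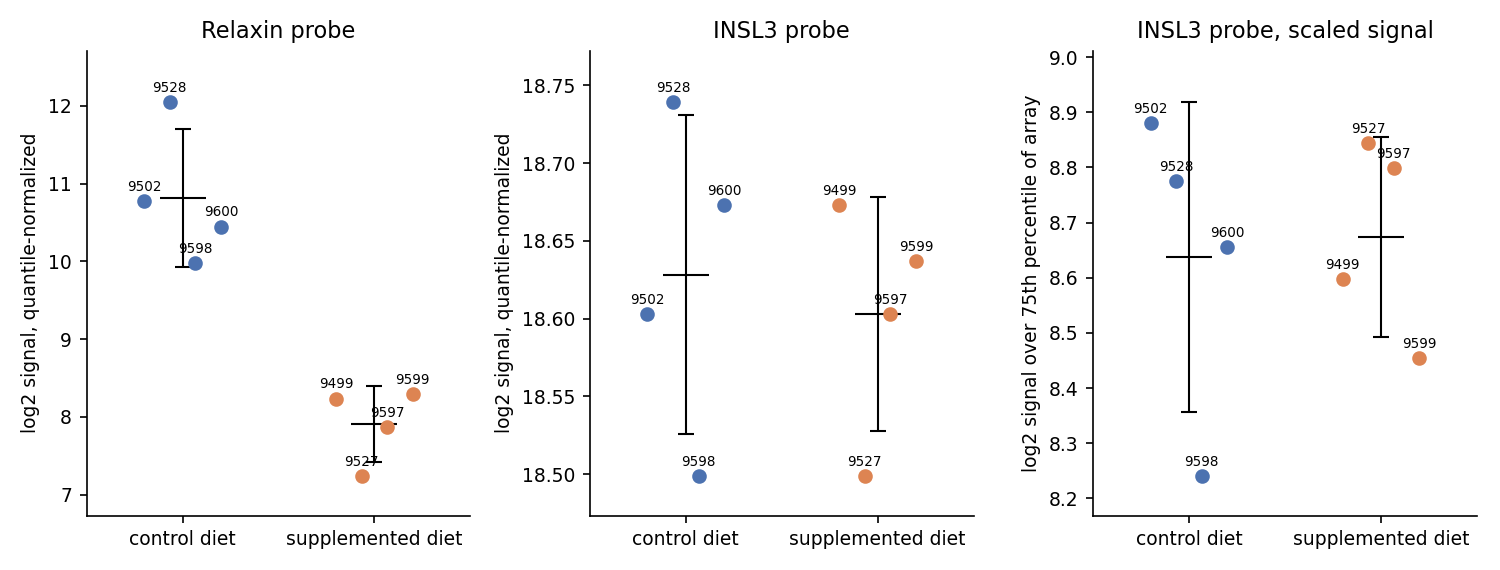
Signal of the relaxin and the INSL3 probe in each boar, on the log2 scale, by diet. Points are boars with their numbers, horizontal lines the group means and bars the SD (n = 4), with quantile-normalized values on the left and in the middle and INSL3 relative to the 75th percentile of its array on the right. The relaxin values of the diets are apart, between 7.23 and 8.29 against 9.98 and 12.05, and those of INSL3 overlap on both scales.

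Among the 36982 probes that passed the filter on dim signals, 191 (0.516%) differed at least 2-fold between the diets, and 87 (0.235%) were at least 2-fold lower on the supplemented diet. No probe had a larger difference than relaxin in either direction. In 235 probes (0.635%) all supplemented boars lay below all control boars, as they did in relaxin. Since this contrast chose the relaxin probe, nothing is read from its place among them.

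The boars varied in relaxin within the diets as well. The residual SD of relaxin around the diet means was 0.71 on the log2 scale, and 95.4% of all probes varied less. Boar m_9528 carried the largest deviation. Without it the difference between the diets was -2.49 (5.63-fold lower on the supplemented diet) and the residual SD fell to 0.45. Leaving out each boar in turn gave differences from -3.18 to -2.49.

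The relaxin difference is described here within each set of boars. The probe was chosen by its difference over all 8 boars, so its presence in both sets is no replication. In the litter of brothers the supplemented boars had 7.87 and 8.29 against 9.98 and 10.45 in the control boars, a difference of -2.13 with a gap of 1.68 between the nearest boars. In the other 4 boars the values were 8.23 and 7.23 against 10.77 and 12.05, a difference of -3.68 with a gap of 2.54. At least 2-fold differences were found in 0.781% of all probes in the brothers and in 2.82% in the other boars. The relaxin difference was numerically smaller in the brothers. The change of the diet difference between the sets, an interaction, was 1.54 (SE 0.70), with an adjusted P of 1 over all probes in limma (unadjusted 0.0618). The size of the diet difference does not set this value. The spread within the diets includes it, however, so a choice by the P-value of the diet is not free of it. Of all probes 738 (2% of those tested) had P under 0.05 in this interaction and none passed the adjustment. Without control boar m_9528 the interaction was 0.91, without supplemented boar m_9499 it was 2.04 (adjusted P = 0.960, unadjusted 0.0285), and without control boar m_9502 it was 2.18 (adjusted P = 0.267, unadjusted 0.00825).

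The level of relaxin itself did not pass the test between the 2 sets of boars. The brothers had 9.14 ± 1.26 (SD, n = 4) and the other boars 9.57 ± 2.22 (SD, n = 4). With diet in the model the difference, brothers minus others, was -0.43 (SE 0.42) with an adjusted P of 0.764 in limma. It was -0.02 without boar m_9528, -0.18 without boar m_9598, -0.67 without boar m_9599, -0.78 without boar m_9527 and -0.16 with array weights, so that its size rested on single boars. The exact two-sided permutation test over 70 splits gave p = 0.743, where the smallest p that 4 against 4 boars allow is 0.0286. These splits take no account of diet, so the diet difference of relaxin adds to their spread. Nothing is concluded from this permutation test. In the same contrast 2999 probes (8.11%) had P under 0.05 and none passed the adjustment.

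INSL3 was among the brightest probes of every array and did not differ detectably between the diets. The median intensity of the INSL3 spot was 401791 in boar m_9597, 461049 in boar m_9599, 427493 in boar m_9499 and 296914 in boar m_9527 on the supplemented diet. On the control diet it was 437316 in boar m_9598, 396311 in boar m_9600, 366909 in boar m_9502 and 502711 in boar m_9528. The highest and the lowest boar lay within a factor of 2 and the groups overlapped, with supplemented boar m_9527 lowest and control boar m_9528 highest. On all 8 arrays these intensities came from the second, low-gain scan and were scaled up by the scanner software. Only 4 to 15 probes were brighter on each array.

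The quantile-normalized INSL3 signal was 18.60 in boar m_9597, 18.64 in boar m_9599, 18.67 in boar m_9499 and 18.50 in boar m_9527. It was 18.50 in boar m_9598, 18.67 in boar m_9600, 18.60 in boar m_9502 and 18.74 in boar m_9528. The 8 boars had only 5 distinct values, because quantile normalization gives the brightest probes of each array the same few numbers, and the residual SD of 0.09 was smaller than in all but 1.27% of probes. The means were 18.60 ± 0.08 and 18.63 ± 0.10 (SD, n = 4 each). The difference was -0.03 (SE 0.13) with an adjusted P of 0.965 in limma and a 95% interval from -0.31 to 0.26, or 0.804-fold to 1.20-fold. This SE draws on the spread of all kept probes as well. It was 0.11 with no filter on dim probes and 0.14 with only the probes well above background on all 8 arrays. The exact two-sided permutation test gave p = 0.83.

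Scaling to the 75th percentile does not give such bright probes shared values, but each value also depends on the divisor of its array. On this scale INSL3 was 8.80, 8.45, 8.60 and 8.84 in boars m_9597, m_9599, m_9499 and m_9527, and 8.24, 8.66, 8.88 and 8.77 in boars m_9598, m_9600, m_9502 and m_9528. The lowest value was that of a control boar and the order of the boars was another one than after quantile normalization. This lowest boar, m_9598, had the highest median signal over its array (192.5) and an unnormalized INSL3 intensity of 437316. The highest scaled values were those of boars m_9502 and m_9527, whose arrays had the lowest median signals (116 and 108). Boar m_9528 had a bright array (174) and a high scaled value. How much of this spread comes from the divisors was not tested. The difference between the diets was 0.04 (SE 0.21), with a 95% interval from -0.44 to 0.51, or 0.740-fold to 1.42-fold. Differences of INSL3 within these limits were not detectable with 4 boars on each diet.

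INSL3 did not pass the test in the other contrasts. Brothers and other boars differed by -0.03 (SE 0.13), with an adjusted P of 0.961 in limma and p = 0.714 in the exact permutation test. On the scaled signal this difference was -0.24 (processed) and -0.15 (median). The interaction of diet and litter was 0.12 (SE 0.27), with an adjusted P of 1. It was 0.29 on the scaled processed signal, 0.37 on the scaled median signal and from 0.03 to 0.21 with each boar left out.

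**Figure D2:**
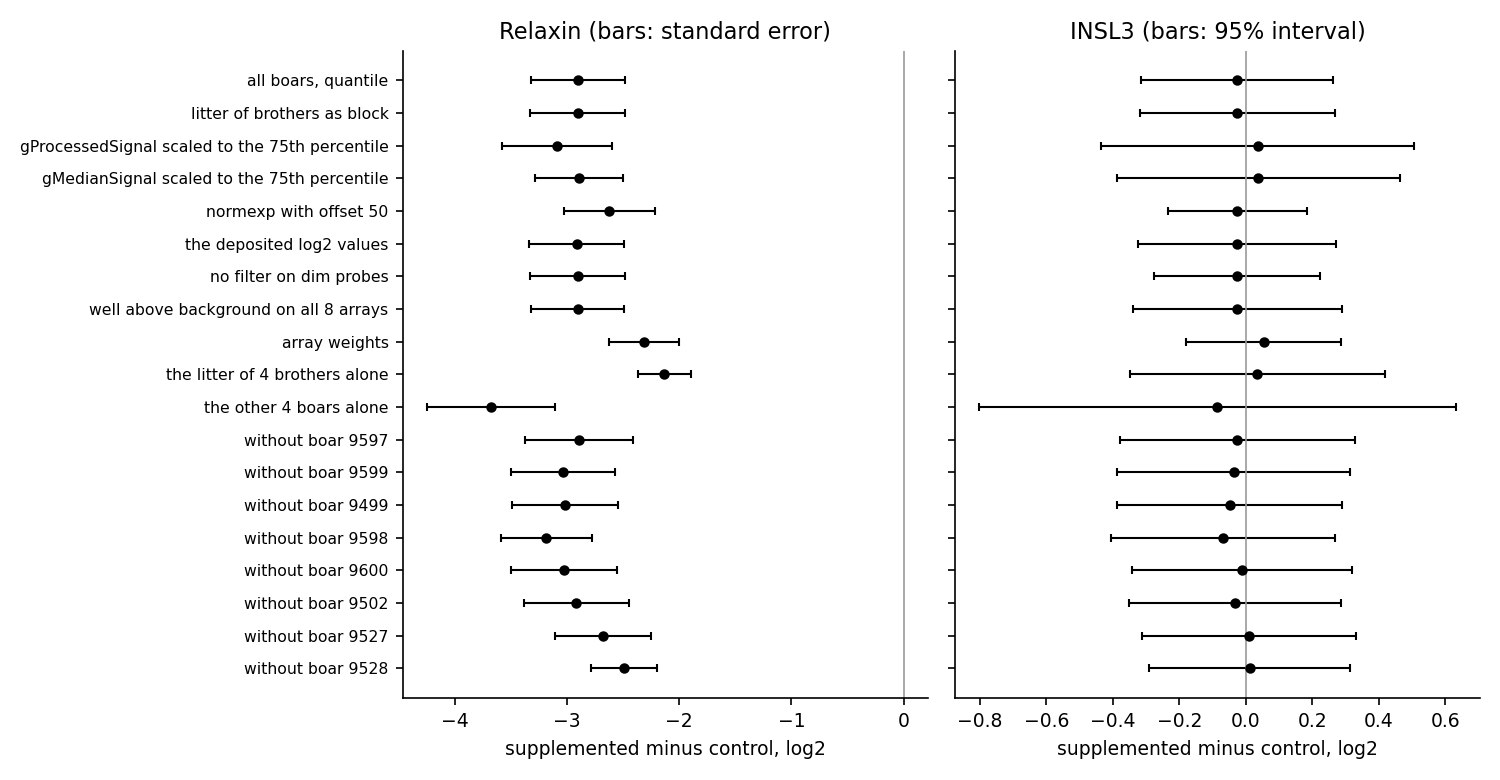
Difference between the diets (supplemented minus control, log2) of relaxin on the left and INSL3 on the right under each way of processing the arrays, in each set of 4 boars and without each boar. Bars are standard errors for relaxin and 95% intervals for INSL3. Relaxin stayed between -3.68 and -2.13, and every interval of INSL3 includes 0.

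Over the 8 boars, with the values centred within each diet, relaxin and INSL3 correlated with r = 0.870 after quantile normalization and with r = 0.282 on the scaled signal. The first value rests on the few distinct INSL3 values described above, and the points share the brightness of each array. By this centred correlation the named probes most like relaxin were LOC100157017 (r = 0.931), the serotonin receptor HTR4 (r = 0.926), the orphan nuclear receptor NR6A1 (r = 0.920), the glycolytic enzyme TPI1 (r = 0.909) and SMAD9 (r = 0.907), a mediator of bone morphogenetic protein signals, among 2602 candidates. Those most like INSL3 were HEXA (r = 0.973), a lysosomal enzyme, BSDC1 (r = 0.948), TPI1 (r = 0.943), the acrosomal protease ACR (r = 0.913) and the esterase CES1 (r = 0.907). On the scaled signal none of the first 5 was the same for either hormone. Of the 5 probes named for relaxin 4 were still among the first 50, and the correlations of the 5 were 0.781 to 0.890, whereas none of the 5 named for INSL3 was, with correlations from -0.07 to 0.57.

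The relaxin family had few other named probes on the array. RLN3, a relaxin best known from the brain, had a dim signal of 5.70 ± 0.25 in supplemented and 5.57 ± 0.19 in control boars (SD, n = 4 each), a difference of 0.13 (SE 0.17, limma adjusted P = 0.864). It was well above background in 7 of 8 boars. RXFP4, the receptor of the gut hormone INSL5, had 6.33 ± 0.23 and 6.42 ± 0.24, a difference of -0.10 (SE 0.18, adjusted P = 0.890). The diets overlapped in both genes. RXFP1 and RXFP2, the receptors of the hormones described here, and RXFP3, INSL5 and INSL6 had no named probe and were not analysed.

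Of 6 probes for 5 genes that process prohormones 1 was lower on the supplemented diet with P under 0.05 and none was higher, at a median difference of -0.21, where 1.86% of all probes had P under 0.05 (0.925% lower, 0.938% higher) and the median difference of all probes was -0.003. With all 8 boars weighted equally, no probe on the array passed the adjustment by diet. The 1 probe was for PAM, the enzyme that amidates the end of peptide hormones, with a difference of -0.51 (SE 0.20, adjusted P = 0.840, unadjusted 0.0299). Of the 6 probes 3, this one included, had their names only from the study's list of probes differing in these boars. The count and the median can therefore not be set against all probes. PAM was 9.63, 9.92, 9.52 and 9.29 in boars m_9597, m_9599, m_9499 and m_9527 and 10.09, 10.41, 9.67 and 10.25 in boars m_9598, m_9600, m_9502 and m_9528. Control boar m_9502 lay among the supplemented boars, so the diets overlapped. A second PAM probe had a difference of -0.31.

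Genes of relaxin signalling and of the matrix it acts on were represented by 27 probes for 19 genes, of which 2 were higher with P under 0.05 and none lower, at a median of 0.07, where 0.938% of all probes were higher and 0.925% lower. The vascular growth factor VEGFA, which relaxin raises in other tissues, was measured by 2 probes. Probe A_72_P116846 was 7.02, 6.51, 7.11 and 7.04 in boars m_9597, m_9599, m_9499 and m_9527 and 6.24, 6.20, 6.83 and 5.77 in boars m_9598, m_9600, m_9502 and m_9528. Its difference was 0.66 (SE 0.24, adjusted P = 0.840, unadjusted 0.0199), with boar m_9599 within the control range. The second VEGFA probe had a difference of 0.66 too, with a larger SE of 0.46 (limma unadjusted P = 0.179) and overlapping diets. GNAS encodes the G protein subunit that couples hormone receptors to cyclic AMP. Its probe A_72_P348513 was 12.98, 12.92, 12.92 and 12.96 in boars m_9597, m_9599, m_9499 and m_9527 and 11.84, 12.30, 12.84 and 11.38 in boars m_9598, m_9600, m_9502 and m_9528. The diets did not overlap in it, as in 1.13% of all probes, and its difference was 0.86 (SE 0.27, adjusted P = 0.840, unadjusted 0.0116). This probe, unlike VEGFA A_72_P116846, had its name only from the study's list of probes differing in these boars. Neither its lack of overlap nor the count of 2 can therefore be set against all probes. The probes of GNAS did not run together, since its 4 others had differences of 0.29, 0.35, 0.18 and -0.24.

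Of 20 probes for 13 transcription factors known to act on the INSL3 promoter, 2 were lower with P under 0.05 and none higher, at a median of -0.03, where 0.925% of all probes were lower and 0.938% higher. Both were for NR2F2 (COUP-TFII), an orphan nuclear receptor of the Leydig cell lineage that acts on the INSL3 gene. Probe A_72_P120271 was 10.65, 10.66, 10.29 and 10.70 in boars m_9597, m_9599, m_9499 and m_9527 and 11.03, 11.28, 11.24 and 11.50 in boars m_9598, m_9600, m_9502 and m_9528. All supplemented boars lay below all control boars, in this probe and in the second one (A_72_P255037), as in 0.635% of all probes. The differences were -0.69 (SE 0.16, unadjusted 0.00174) and -0.60 (SE 0.16, unadjusted 0.00393), each with an adjusted P of 0.840 in limma. Both NR2F2 probes, PAM A_72_P027611, VEGFA A_72_P116846 and GNAS A_72_P348513 are in the study's list of differing genes, which was drawn from these boars, so their directions are no independent evidence. The NR2F2 probes had their names only from that list. Neither their count nor their lack of overlap can therefore be set against all probes. NR5A1 (steroidogenic factor 1), which activates INSL3 and the steroid enzymes, had a difference of -0.11 (SE 0.29, adjusted P = 0.923).

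The arrays measured whole testis, in which fewer Leydig cells and less hormone RNA per Leydig cell cannot be told apart. The defining Leydig markers LHCGR, STAR, CYP11A1, CYP17A1 and HSD3B1 were well above background on all 8 arrays in all of their 10 probes. The whole list of Leydig markers, without relaxin and INSL3, held 30 probes for 20 genes. Of the probes 25 had a lower mean on the supplemented diet, at a median difference of -0.17, against -0.003 over all probes. Several genes had more than 1 probe, so the probes are not independent of each other. Of the 30 probes 1 was lower and 1 higher with P under 0.05, where 0.925% and 0.938% of all probes were, and their adjusted P was 0.840 or above. VCAM1, an adhesion protein of Leydig cells, had a log2 difference of -1.22 (SE 0.44, adjusted P = 0.840, unadjusted 0.0199). PRLR, the prolactin receptor, which is in the study's list too, had one of 0.70 (SE 0.23, adjusted P = 0.840, unadjusted 0.0140). The PRLR probe had its name only from that list, so the count of 1 higher cannot be set against all probes.

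All 10 probes of the defining Leydig markers had lower means on the supplemented diet with all boars, without passing the test. STAR, which brings cholesterol into the mitochondrion, had a difference of -0.14, and LHCGR, the receptor for luteinizing hormone, one of -0.44. The probes of CYP11A1, the enzyme of the first step of steroid synthesis, had differences of -0.35, -0.55 and -0.38. Those of CYP17A1, which leads on to the androgens, had differences of -0.12, -0.58 and -0.63, and those of HSD3B1 differences of -0.15 and -0.16. In the 30 Leydig probes 2 were at least 2-fold lower, VCAM1 and the aromatase CYP19A3 (log2 difference -1.45, SE 0.76, limma adjusted P = 0.840, unadjusted 0.0865), where 0.235% of all probes were. Without boar m_9527 the differences of VCAM1 and CYP19A3 were -0.81 and -0.96, both short of 2-fold. Without boar m_9499 they were -1.48 and -2.18.

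Supplemented boars m_9499 and m_9527 lay at the opposite ends of the Leydig markers. The median of the 30 probes, relative to the mean of all boars, was -0.18, -0.30, 0.59 and -0.56 in boars m_9597, m_9599, m_9499 and m_9527, and 0.34, 0.21, -0.20 and 0.27 in boars m_9598, m_9600, m_9502 and m_9528. The summed signal of the list, on the linear scale, was 334964, 278680, 641545 and 272101 in the former and 535027, 461342, 345727 and 403346 in the latter, and its brightest gene was the glutathione transferase GSTA1. Boar m_9499 had the highest signal of all boars in 14 of the 30 probes and boar m_9527 the lowest in 15. STAR, for example, was 13.69 in boar m_9499, above the 12.18 of the highest control boar, and 10.84, 10.66 and 10.15 in the other supplemented boars. Relaxin was 8.23 in boar m_9499 and 7.23 in boar m_9527.

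**Figure D3:**
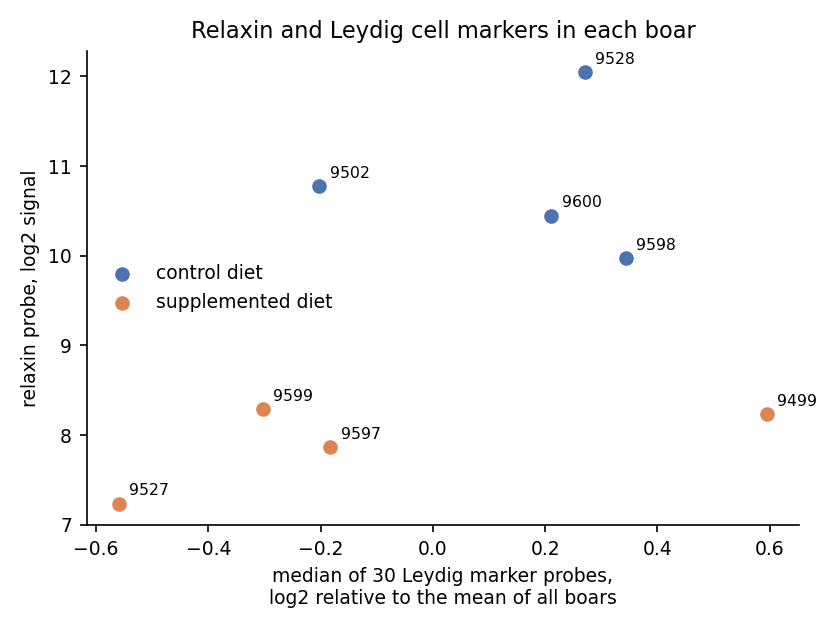
Relaxin signal (vertical axis, quantile-normalized log2) against the median of the 30 Leydig marker probes (horizontal axis, log2 difference from the mean over the 8 boars), 1 point per boar. Supplemented boars lie between -0.56 and 0.59 on the horizontal and between 7.23 and 8.29 on the vertical axis, control boars between -0.20 and 0.34 and between 9.98 and 12.05.

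The size of the Leydig difference, and how many probes passed P under 0.05, turned on single boars. Without boar m_9499, 26 of the 30 probes had a lower mean, at a median of -0.50, and 15 were lower and 1 higher with P under 0.05, where 2.03% of all probes had P under 0.05 and 0.957% were lower. Without boar m_9527 only 20 of the 30 had a lower mean, at a median of -0.06, and 1 was lower and 1 higher with P under 0.05, where 1.18% of all probes passed and 0.557% were lower. STAR was -0.92 without boar m_9499 and 0.25 without boar m_9527. Without boar m_9527 CYP17A1 A_72_P023521 was 0.17 and CYP11A1 A_72_P381703 was 0.08, so that 3 of the 10 probes of the defining markers changed sign. In the brothers alone 24 of the 30 had a lower mean, at a median of -0.48. Of the 30 probes 14 were lower and 1 higher with P under 0.05, where 6.44% of all probes passed and 3.49% were lower. In the other 4 boars alone 17 of the 30 had a lower mean, at a median of -0.10, and none passed, where 0.971% of all probes did and 0.443% were lower. Without boar m_9502, 4 were lower and 1 higher with P under 0.05, where 16.6% of all probes passed and 9.09% were lower. No Leydig probe passed the adjustment in any of these fits, as 0.00811% of all probes did in the brothers and 0.0027% without boar m_9502. The part that the Leydig markers have in the relaxin difference was not tested. The relaxin difference itself was -3.01 without boar m_9499 and -2.68 without boar m_9527.

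**Figure D4:**
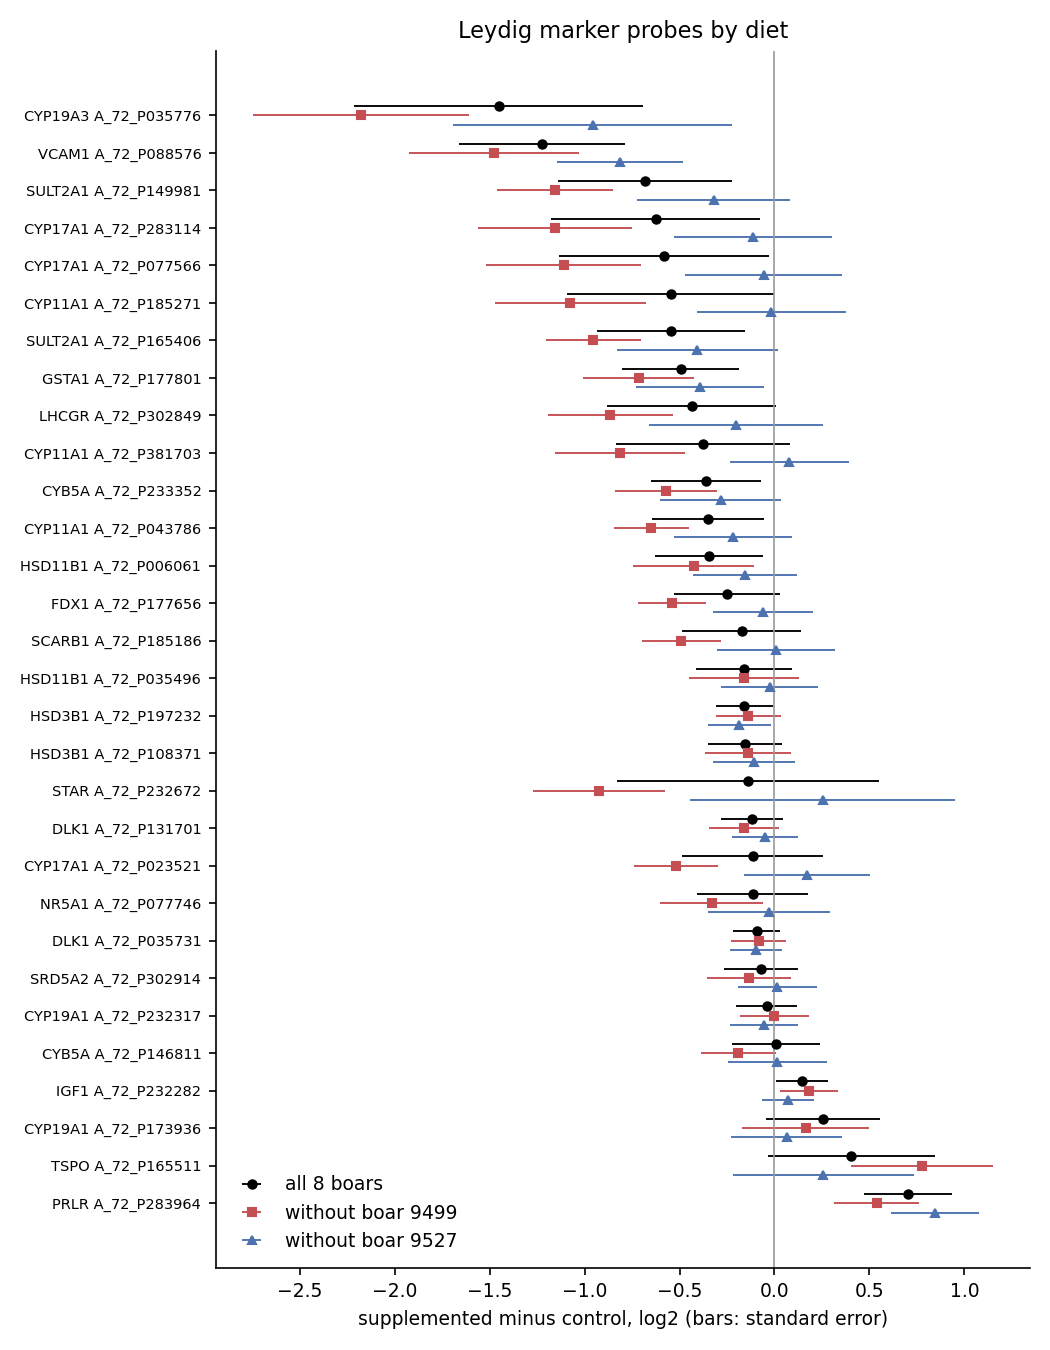
Difference between the diets (supplemented minus control, log2) of each of the 30 Leydig marker probes, with all 8 boars (black circles), without boar m_9499 (red squares) and without boar m_9527 (blue triangles). Bars are standard errors. With all boars 25 probes have a negative difference at a median of -0.17, without boar m_9499 26 at -0.50 and without boar m_9527 20 at -0.06.

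Markers of the other cells that whole testis can hold were counted in the same way. With all boars none of the 63 probes of the other cell types had P under 0.05, where 1.86% of all probes did. The count was 4 without boar m_9599 and 8 without boar m_9600, where 1.91% and 3.28% of all probes had P under 0.05. It was 10 without boar m_9502 and 8 with array weights, where 16.6% and 15.8% did. In the other 4 boars alone it was 6, where 0.971% did. The median difference was -0.03 over 13 Sertoli cell probes, -0.13 over 11 spermatid probes, 0.12 over 4 spermatogonial probes, 0.36 over 5 peritubular probes and 0.24 over 10 macrophage probes, 9 of which had a higher mean on the supplemented diet. It was -0.15 over 2 spermatocyte probes, -0.01 over 5 endothelial probes and 0.10 in the 1 red blood cell probe. Over all probes on the array that passed the filter it was -0.003. Epithelium of the ducts and accessory glands, another known site of relaxin in male mammals, had 12 probes with a median of -0.20, 8 of them lower in the mean of the supplemented boars. Its brightest gene was MSMB, a secreted protein of such glands, with differences of 0.04 and 0.10. The 3 probes of the epithelial adhesion protein EPCAM had differences of -0.95, -1.19 and -1.15, each with an unadjusted P of 0.0845 or above. With each boar left out these ranged from -1.40 to -0.50, from -1.68 to -0.65 and from -1.68 to -0.69. EPCAM was lowest in supplemented boar m_9597 and highest in control boar m_9598 in each of the 3 probes, and the diets overlapped. The duct list had per-boar medians of -0.03, 0.13, -0.37 and -0.25 in boars m_9597, m_9599, m_9499 and m_9527 and of 0.28, 0.04, -0.19 and 0.37 in boars m_9598, m_9600, m_9502 and m_9528. The summed signal of its probes was 30778 to 48866 in supplemented and 37540 to 55354 in control boars. Of its defining markers EPCAM and CDH1 were measured and KRT8, KRT18 and KRT19 had no named probe. The probes of CDH1 had differences of -0.18 and -0.15. The part of the duct list in the relaxin difference was not tested.

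Genes next to relaxin in RefSeq order were looked up as well. PDCD1LG2 and CD274, ligands of the immune checkpoint receptor PD-1, had differences of 0.03 and 0.00. The kinase JAK2 had a difference of -0.36, and the 2 probes of the adenylate kinase AK3 had differences of -0.56 and -0.31. The diets overlapped in all of them. Beside INSL3 only SLC5A5, the iodide transporter, had a probe, with a difference of 0.41 and overlapping diets.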

How the data were processed

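The scanner output that the authors deposited comes from Agilent Feature Extraction (version 10.5.1.1 per the file headers) and holds the intensity of each spot, with no normalization across the arrays. A deposited table adds log2 values. Checked against the scanner files, it is the quantile-normalized log2 gMedianSignal (median absolute difference 0.0297), and it served as an alternative. Here log2 gMedianSignal of the 43803 noncontrol spots was quantile-normalized, with no background subtracted, and averaged over the spots of each probe. A probe was kept if 2 of the 4 arrays of either diet had a signal above 25 with the flag gIsWellAboveBG (36982 probes). In R 4.3.3, limma 3.58.1 (lmFit, eBayes) fitted diet, diet with litter, and their interaction. Its two-sided P-values were adjusted by Benjamini-Hochberg across the kept probes, and the code was tested on simulated data. Single values were tested by exact permutation in scipy 1.17.1. Python 3.11.15 with matplotlib 3.10.9 drew the figures.

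Gene names came from the RefSeq gene table (assembly Sscrofa11.1, used for names and gene order alone, 2628 probes matched by accession) and from the study's list of differing probes (3064 named probes with both, 2918 of them kept). The per-boar values and the authors' own comparisons (fold changes and P-values) in that list were not used. No file used here holds the INSL3 probe sequence. The hormones and all gene lists were chosen with earlier results of these data known. The probes named were, by rule, those of relaxin, INSL3 and their family, in each list those with P under 0.05, those of LHCGR, STAR, CYP11A1, CYP17A1, HSD3B1 and NR5A1 at any value, and the 5 most correlated with each hormone after centring within diet. EPCAM, CYP19A3, MSMB and the neighbouring genes were added after their values were seen.

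The alternatives were gProcessedSignal and gMedianSignal scaled to the 75th percentile, normexp with an offset of 50, the deposited log2 values, other filters on dim probes, array weights, the litter as a block, each set of 4 boars alone and each boar left out. The correlations and the INSL3 spread on the scaled signal were added after seeing the data. The permutation p-values measure the spread between these boars. The limma P-values, SEs and intervals also draw, through eBayes, on the spread of all kept probes.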

Additional observations from a re-analysis of the deposited data

Results flagged for a closer look

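In groups of 4 boars the highest or lowest value was compared with its gap to the nearest other boar (Dixon's test). Of 74 groups tested 8 had such a boar, where chance alone gives about 1 in 20, or 3.7. The probes share the same 8 boars and are not independent. Neither relaxin nor INSL3 had one.

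Supplemented boar m_9499 was apart from the other supplemented boars in 3 probes. It was high in CYP11A1 A_72_P043786 (9.09, others 7.79 to 7.97) and in NR5A1 (9.03, others 8.12 to 8.23), and low in NR2F2 A_72_P120271 (10.29, others 10.65 to 10.70). Supplemented boar m_9599 was low in VEGFA A_72_P116846 (6.51, others 7.02 to 7.11). Control boar m_9502 was low in CYP17A1 A_72_P077566 (11.43, others 12.20 to 12.33).

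In the marker lists, relative to the mean of all boars, control boar m_9600 was high in the macrophage median (0.65, others -0.39 to -0.36). The median of the 2 spermatocyte probes was high in supplemented boar m_9599 (0.0849, others -0.13 to -0.12) and in control boar m_9528 (0.45, others -0.09 to -0.01).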

How the results depend on the processing

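Relaxin was lower on the supplemented diet under every alternative run, by -2.13 in the brothers, -3.68 in the other boars, and from -3.18 to -2.49 with each boar left out. All these runs use the boars in which the probe was chosen, so they are no independent support. INSL3 lay near 0 throughout, and its sign depended on the setting. Its difference was 0.0359 with the processed and 0.0378 with the median signal after scaling to the 75th percentile. It was 0.0536 under array weights, 0.0343 in the brothers, and from -0.0688 to 0.0114 with each boar left out (0.00928 without m_9527, 0.0114 without m_9528). The litter difference of INSL3 ranged from -0.0724 to 0.0213 with each boar left out (0.0213 without m_9598, 0.0137 without m_9528), and was -0.237 with the scaled processed and -0.155 with the scaled median signal.

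Of all probes 689 had P under 0.05 by diet, against 5830 with array weights, which gave boar m_9502 the lowest weight, 2381 in the brothers, 359 in the other boars and 339 to 6155 with each boar left out (369 without m_9598, 1213 without m_9600, 6155 without m_9502, 438 without m_9527, 339 without m_9528). The count past the adjustment, 0 with all boars, was 1 with array weights, 3 in the brothers and 0 to 1 with each boar left out (1 without m_9502). Of the 54 probes of the family, processing, signalling and promoter lists 5 had P under 0.05, against 14 with array weights, 9 in the brothers, 2 in the others and 3 to 14 with each boar left out (3 without m_9499 or m_9528, 8 without m_9600, 14 without m_9502). The 2 Leydig probes became 1 when all 8 arrays had to be well above background, 8 with array weights, 15 in the brothers, 0 in the others and 1 to 16 with each boar left out (16 without m_9499, 5 without m_9502, 1 without m_9600 or m_9528). The 0 of 63 probes of other cell types became 1 with the scaled processed signal, with normexp and in the brothers, 8 with array weights, 6 in the others and 0 to 10 with each boar left out (4 without m_9599, 8 without m_9600, 10 without m_9502). The cause of these shifts was not tested. Of the first 5 probes most like each hormone, 0 were shared for relaxin and 2 for INSL3 when values were not centred within diet.

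No paired analysis was possible because the numbers in the sample titles name single boars, and the litters of the boars outside the brothers are not given in the sources used here. With the brothers and the other 4 boars as blocks 726 probes had P under 0.05 by diet and 0 passed the adjustment, and the counts of the lists were 5, 2 and 0 as without it.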
